A study of Mus musculus with 2 samples.

Results

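The genes by which astrocytes clear transmitter from the synapse, couple to one another and keep the water and ion balance of the tissue were followed through single-cell RNA-seq of aged mouse hippocampus. They are Slc1a2, Slc1a3, Glul, Gja1, Gjb6, Aqp4, Mlc1, Slc7a10, Slc6a11 and Agt. They were chosen by symbol, and 10 of 10 were found among the 19059 genes measured. Both groups were C57BL/6 wild-type mice of both sexes, 21 months old at the start, and they differed in the diet: standard chow for the control group, and chow with 0.05% tomatidine, a plant steroidal alkaloid, for 3 months in the treated group. Hippocampi of 4 mice were pooled into 1 library for each group, so there is no spread over animals, no test between the groups could be made and no p-value is given. Every interval in the text is a 95% interval for counting error only. A difference in dissection or in the making of the 2 libraries cannot be told apart from a difference between the diets.

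Astrocytes take up most of the glutamate released at synapses through the transporters GLT-1 (Slc1a2) and GLAST (Slc1a3), and glutamine synthetase (Glul) turns it into glutamine that is handed back to neurons. Gap junctions of connexin 43 (Gja1) and connexin 30 (Gjb6) join astrocytes into a network that spreads potassium and metabolites, while the water channel Aqp4 and the membrane protein Mlc1 sit in the endfeet around vessels. Slc7a10 is the Asc-1 transporter of small neutral amino acids such as D-serine and glycine, Slc6a11 is the GABA transporter GAT-3, and Agt is angiotensinogen. Astrocytes differ between brain regions, and Agt is a known marker of astrocytes outside the telencephalon, while Mfge8 and Lhx2 mark those within it.

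Slc7a10, Agt and Slc6a11 were used to divide the astrocytes, and the DNA before their start sites is shown for that reason. Each sequence holds the 250 bases before the RefSeq start on GRCm38.p6, the build of the deposited data, read 5′ to 3′ on the gene's strand. Capitals mark matches on either strand to GGGCGG in the Slc7a10 and Slc6a11 sequences and to TATAAA in the Agt sequence. The Slc7a10 window is chr7:35186135-35186384 on the plus strand, the Slc6a11 window chr6:114130991-114131240 on the plus strand and the Agt window chr8:124569707-124569956 on the minus strand. In the GENCODE annotation of this build the genes themselves span chr7:35186385-35201114 (Slc7a10), chr6:114131241-114249952 (Slc6a11) and chr8:124556534-124569706 (Agt).
Slc7a10: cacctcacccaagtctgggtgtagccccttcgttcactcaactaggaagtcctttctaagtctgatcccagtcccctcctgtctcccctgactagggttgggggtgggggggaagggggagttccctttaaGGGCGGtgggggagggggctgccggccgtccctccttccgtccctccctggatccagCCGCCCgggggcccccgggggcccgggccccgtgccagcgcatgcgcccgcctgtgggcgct
Slc6a11: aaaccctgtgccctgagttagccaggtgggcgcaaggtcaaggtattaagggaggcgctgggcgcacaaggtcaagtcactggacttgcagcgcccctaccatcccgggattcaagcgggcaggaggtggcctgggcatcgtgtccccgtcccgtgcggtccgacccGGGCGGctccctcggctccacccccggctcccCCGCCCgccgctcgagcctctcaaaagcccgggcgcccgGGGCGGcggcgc
Agt: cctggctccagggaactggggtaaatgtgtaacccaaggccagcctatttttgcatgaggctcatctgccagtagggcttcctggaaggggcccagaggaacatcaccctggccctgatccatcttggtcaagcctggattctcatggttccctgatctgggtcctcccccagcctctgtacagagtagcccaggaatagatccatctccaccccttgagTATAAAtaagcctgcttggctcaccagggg

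The upstream sequences of Slc7a10 and Slc6a11 were rich in G and C and that of Agt was less so. Agt had a TATAAA match that ended 24 bases before the start and 0 CG dinucleotides, with 55.6% G and C. Slc7a10 and Slc6a11 had no TATAAA, 2 and 3 matches to GGGCGG, 14 and 25 CG dinucleotides, and 69.6% and 71.2% G and C against a median of 52.4% over 32851 mouse promoters. TATAAA was found in 12.4% of all these promoters and GGGCGG in 32.7%. RefSeq promoter rows were found for 9 of the 10 genes. CCAAT (33.8% of all promoters) was found in the windows of Slc1a3, Glul and Mlc1, and none of the 6 motifs searched in those of Slc1a2, Gja1 or Gjb6. The Slc1a2 window (chr2:102706188-102706437) lies inside the GENCODE span of that gene, chr2:102658659-102790784. So does the Mlc1 window (chr15:88978554-88978803), within chr15:88955884-88979007. The sequence before the outer start of these genes was not searched. The remaining motifs, CACGTG (6.02% of promoters), TGACGTCA (1.55%) and the full palindromic site of nuclear factor I (0.0365%), had no match in the windows of any of the 9 genes. A match is a description of the letters and was not tied to binding in these cells.

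The files held 31097 cells with 279525565 UMIs in the control and 259059908 in the tomatidine library, and 29618 cells were kept, 15115 control and 14503 tomatidine. A UMI (unique molecular identifier) is a tag on a single molecule, and levels are given as CPM, the UMIs of a gene per 1000000 UMIs of the cell class. The libraries shared 292 cell barcodes. Hippocampal neuron classes were present, but so were 463 control and 914 tomatidine cells like those of thalamus or other subcortical regions and 342 control against 31 tomatidine choroid plexus-like cells, so the libraries also held cells of kinds found outside the hippocampus, in unequal numbers, and the reason was not tested.

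Astrocyte-like cells were 1768 of the control cells (11.7%) and 2021 of the tomatidine cells (13.9%), with median depths of 3387.5 and 4166 UMIs. They formed 2 clusters, both found without the members, which were left out of clustering and naming. The cluster led by Acsbg1 held 1355 control and 1426 tomatidine cells and had 22 of 23 astrocyte markers raised, and the cluster led by Cyp4f15 held 413 and 595 cells and had 23 of 23 raised. Aldh1l1, a folate enzyme that defines astrocytes, was at 202 and 197 CPM in the astrocyte-like cells of the control and tomatidine libraries against 14.5 and 16.5 CPM in the other cells. Markers of vessels were nearly absent (Cldn5 at 3.69 and 5.54 CPM), but the neuronal Snap25 stood at 1310 and 1346 CPM and the myelin gene Mbp at 2410 and 2387 CPM. Neuronal and myelin transcripts were thus counted in these barcodes at about the same level in both libraries, and free RNA was not separated from that of the cell. Another group of cells, led by Tnnt1 (366 control and 178 tomatidine cells), had 17 astrocyte markers raised without meeting the naming rule, and one led by Tmem212 (186 and 159 cells), had ependymal and astrocyte markers. Both were kept apart.

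All 10 genes were higher in the cluster led by Cyp4f15 than in the cluster led by Acsbg1, in both libraries. The former was also deeper, with medians of 6278 and 5365 UMIs in control and tomatidine cells against 2664 and 3341. The part of depth or free RNA in this difference was not tested. Slc7a10 was at 762 and 1029 CPM in the control and tomatidine cells of the cluster led by Cyp4f15 and at 137 and 168 CPM in that led by Acsbg1. Gja1 was at 4338 and 4795 CPM against 1043 and 1124 CPM, and Slc1a3 at 5621 and 5156 CPM against 1804 and 1725 CPM. Glul separated the clusters least, with 2688 and 2463 CPM against 2322 and 2254 CPM. Glutamine synthetase was therefore close to even over the clusters, whereas the transporters and connexins were not.

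**Figure D1:**
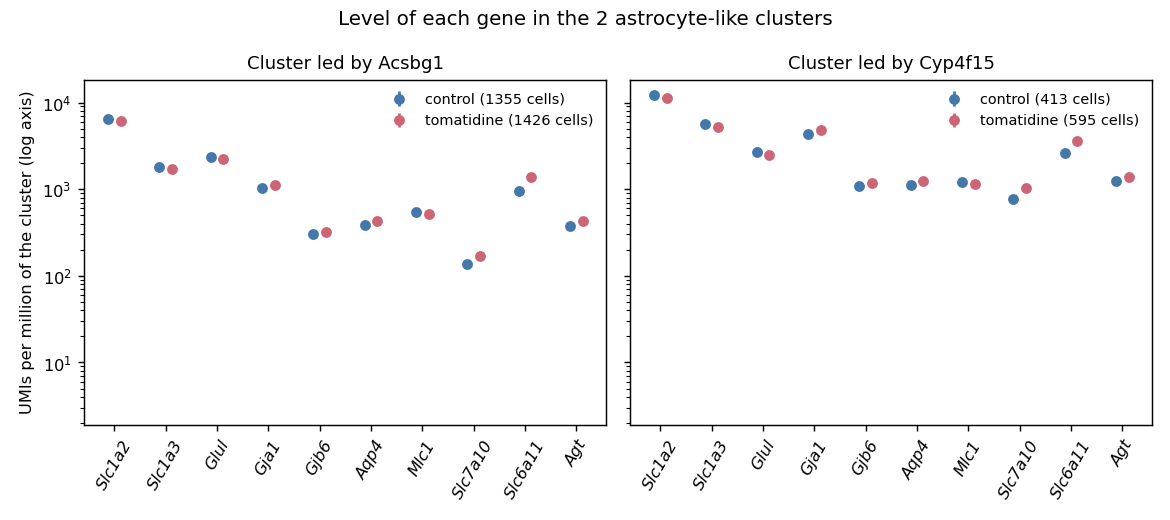
Level of each gene (CPM of the cluster, log axis) in the 2 astrocyte-like clusters, control in blue and tomatidine in red, with 95% counting intervals that are mostly smaller than the points. Every gene sits higher in the cluster led by Cyp4f15, and Glul differs least.

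Within single astrocyte-like cells the genes were mostly found together. Both glutamate transporters were found in 90.8% of control and 93.5% of tomatidine cells, and both connexins in 55.9% and 65.0%. Aqp4 and Mlc1, the pair of endfoot proteins, were both found in 56.1% and 63.7%. Slc7a10 was found with Slc6a11 in 39.9% and 50.7% of cells and with Agt in 29.98% and 39.09%, so these transporters did not mark separate cells at this depth. All these shares were higher in the tomatidine library, whose astrocyte-like cells were also deeper, with a median of 4166 against 3387.5 UMIs. With each cell thinned to 1500 UMIs, leaving out 255 control and 212 tomatidine cells, Slc7a10 was found in 29.3% of control and 37.3% of tomatidine astrocyte-like cells (42.9% and 52.4% before thinning), Slc6a11 in 63.1% and 72.8% (76.6% and 87.8%) and Gja1 in 69.7% and 75.1% (81.1% and 87.3%). Microglia-like cells, which should lack these genes, gave the background after the same thinning, 3.14% and 2.76% for Slc7a10, 14.5% and 20.7% for Slc6a11, and 12.7% and 14.8% for Gja1. Before thinning these were 5.48% and 5.27%, 24.1% and 31.9%, and 20.1% and 23.2%, at median depths of 3111 and 2898 UMIs. For Slc1a2 the thinned share was 99.3% and 99.4% in astrocyte-like cells and still 60.2% and 65.0% in microglia-like cells, so detection of this transcript does not mark a cell that makes it.

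The libraries were made in work on senescence and tight junctions of brain endothelial cells, and the diets are compared here in the astrocyte-like cells. A gene was called different when its log2 ratio was past 0.32 in either direction with at least 100 UMIs over both libraries, a rule of size and not a test, and such a gene is said to be past the fold. By this rule 2 of the 10 genes were called, Slc6a11 and Slc7a10, both higher in the tomatidine library, where 8.3% of the 11401 genes tested were called and 4.69% were called higher. The median log2 ratio of tomatidine over control was 0.07 over the 10 genes and 0.01 over all genes tested.

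Slc6a11, which carries GABA into astrocytes, was at 1585 CPM in control and 2152 CPM in tomatidine astrocyte-like cells (15463 and 26010 UMIs), a log2 ratio of 0.44 (0.41 to 0.47). Slc7a10, the D-serine and glycine carrier, was at 373 and 469 CPM (3642 and 5670 UMIs), a log2 ratio of 0.33 (0.27 to 0.39), which is 1.26-fold and lies just past the rule. Agt, the precursor of the angiotensins, was at 704 and 765 CPM, a log2 ratio of 0.12 (0.08 to 0.17). All 3 were higher in the tomatidine library, and Agt was well inside the fold. When astrocytes were taken by a marker gate in place of clusters, Slc6a11 was at 0.21 and Slc7a10 at 0.13, both inside the fold, and over 13 alternatives Slc6a11 stayed past it in 12 and Slc7a10 in 8. The alternative with no minimum of UMIs is among the 13, and it leaves the ratio of each member unchanged by construction.

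In the astrocyte-like cells the glutamate uptake genes lay slightly the other way. Slc1a2 was at 8529 CPM in control and 7934 CPM in tomatidine cells, a log2 ratio of −0.10 (−0.12 to −0.09). Slc1a3 was at 3248 and 2926 CPM, a log2 ratio of −0.15 (−0.17 to −0.13), and Glul at 2461 and 2327 CPM, a log2 ratio of −0.08 (−0.11 to −0.06). None of the 3 came near the fold, and the sign held over 13 alternatives for Slc1a3 only (−0.31 to −0.01). With the cluster led by Tnnt1 included, Slc1a2 was at 0.02 and Glul at 0.0027. In the cluster led by Tmem212, which was kept apart, all 3 were higher in the tomatidine library. The log2 ratios there were 0.46 for Slc1a2, 0.09 for Slc1a3 and 0.33 for Glul, and this difference from the astrocyte-like cells was not tested.

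Among the coupling and endfoot genes, Gja1 was at 2290 and 2409 CPM, a log2 ratio of 0.07, and Gjb6 at 595 and 623 CPM, also 0.07. Aqp4 was at 661 and 715 CPM, a log2 ratio of 0.11, whereas Mlc1 was at 800.0 and 733 CPM, a log2 ratio of −0.13. The division depended on how cells were chosen: by the marker gate Gja1 was at −0.13, Gjb6 at −0.12 and Aqp4 at −0.13, on the same side of 0 as Mlc1 (−0.27). All 10 counting intervals left out 0, which at these UMI numbers happens for small ratios, and none of them covers the spread between animals.

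**Figure D2:**
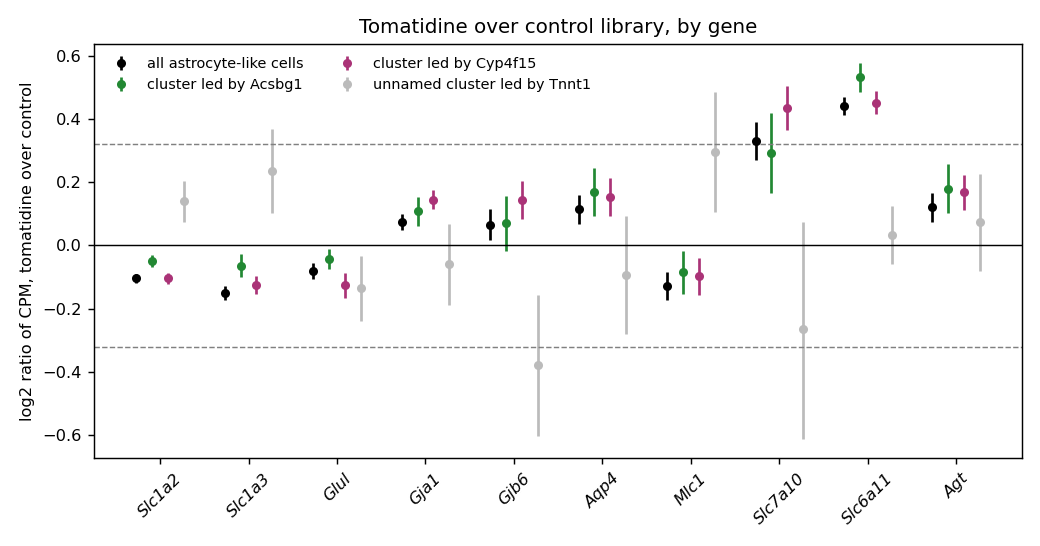
The log2 ratio of CPM, tomatidine over control, for each gene with 95% counting intervals, in all astrocyte-like cells, their 2 clusters and the unnamed cluster led by Tnnt1. Dashed lines mark the fold (0.32), which Slc6a11 passes in all astrocyte-like cells (0.44) and in each of their clusters but not in the cluster led by Tnnt1 (0.03).

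The ratio of Slc6a11 was 0.53 in the cluster led by Acsbg1 and 0.45 in that led by Cyp4f15, where 9.8% and 15.7% of genes were past the fold. That of Slc7a10 was 0.29 and 0.43, so it passed the fold in the cluster led by Cyp4f15 alone. In the unnamed cluster led by Tnnt1 the ratios were 0.03 (−0.06 to 0.13) for Slc6a11 and −0.26 (−0.61 to 0.08) for Slc7a10, and 19.3% of genes were past the fold. At a finer resolution, Slc6a11 was at 1116 and 1753 CPM (log2 ratio 0.65) among cells led by Fam107a, Acsbg1 and Papss2, the largest of the finer clusters with 796 and 756 cells, where 14.9% of genes were past the fold. It was at 548 and 537 CPM (log2 ratio −0.03, −0.13 to 0.07) among those led by Fam107a, Dmp1 and Acsbg1, with 246 and 331 cells, where 13.5% of genes were. The higher Slc6a11 of the tomatidine library was thus not seen in every group of astrocyte-like cells, and the difference between the groups was not tested.

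Genes of brain region differed between the libraries in the same cells. Of the 14 genes on a list for diencephalon and other regions outside the telencephalon, 11 had enough UMIs, and 6 were past the fold higher and 2 lower in the tomatidine library, with a median log2 ratio of 0.35, where 8.3% of all genes were past the fold in either direction and 4.69% higher. The higher ones included the homeobox genes Irx3 (6.05 and 12.5 CPM, log2 ratio 1.05) and Otx2 (10.97 and 17.87 CPM, 0.70), with Irx5 at 0.99, Irx2 at 0.63, Lhx9 at 0.35 and Itih3 at 0.58, and the lower ones were the zinc finger genes Zic1 (−0.97) and Zic4 (−0.89). Irx5 had 33 control and 81 tomatidine UMIs and Zic4 66 and 44, so each passed the minimum mainly through the library where it was high. For Lhx9 the interval covered 0 (−0.04 to 0.75). The counts of 6 and 2 hold these genes. Of 9 telencephalic genes with enough UMIs 0 were past the fold, with a median of −0.18, the highest being Mfge8 at 0.03 and the lowest Dmrta2 at −0.28. The part of a different mix of regions in the ratios of Slc6a11 and Slc7a10 was not tested beyond weighting the 2 libraries to the same mix of the finer clusters, which gave 0.36 for Slc6a11 and 0.33 for Slc7a10. Neuronal marker UMIs in the astrocyte-like cells were alike, at 6504 and 6390 CPM over 26 genes.

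The same genes were read in the other cell classes to see whether the difference was particular to astrocytes. Slc6a11 was higher in the tomatidine library in 10 of the 12 named classes with enough UMIs, with an interval above 0 in all 10, and these counts include the astrocyte-like class itself. Its log2 ratio was 1.05 in the subcortical neuron-like class, 0.91 in microglia-like cells, 0.82 in oligodendrocyte-like cells and 0.65 in oligodendrocyte precursor (OPC)-like cells. Of all genes, 10.8%, 11.8% and 10% were past the fold higher in the last 3 classes, and the share is not given for the first. The subcortical neuron-like class joined a cluster led by Pou4f2 (192 control and 691 tomatidine cells) and another led by Abhd12b (271 and 223). Their mix thus differed between the libraries, and its part in the ratio of 1.05 was not tested. The ratio of Slc6a11 was 0.13 in endothelial-like cells, −0.30 in meningeal fibroblast-like cells and −0.62 (−1.44 to 0.10) in choroid plexus-like cells. In microglia-like cells, where the level is read as background, Slc6a11 was at 184 and 347 CPM, so this background was higher in the tomatidine library as well. How much of the ratio in astrocyte-like cells is RNA from outside the cell was not tested.

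**Figure D3:**
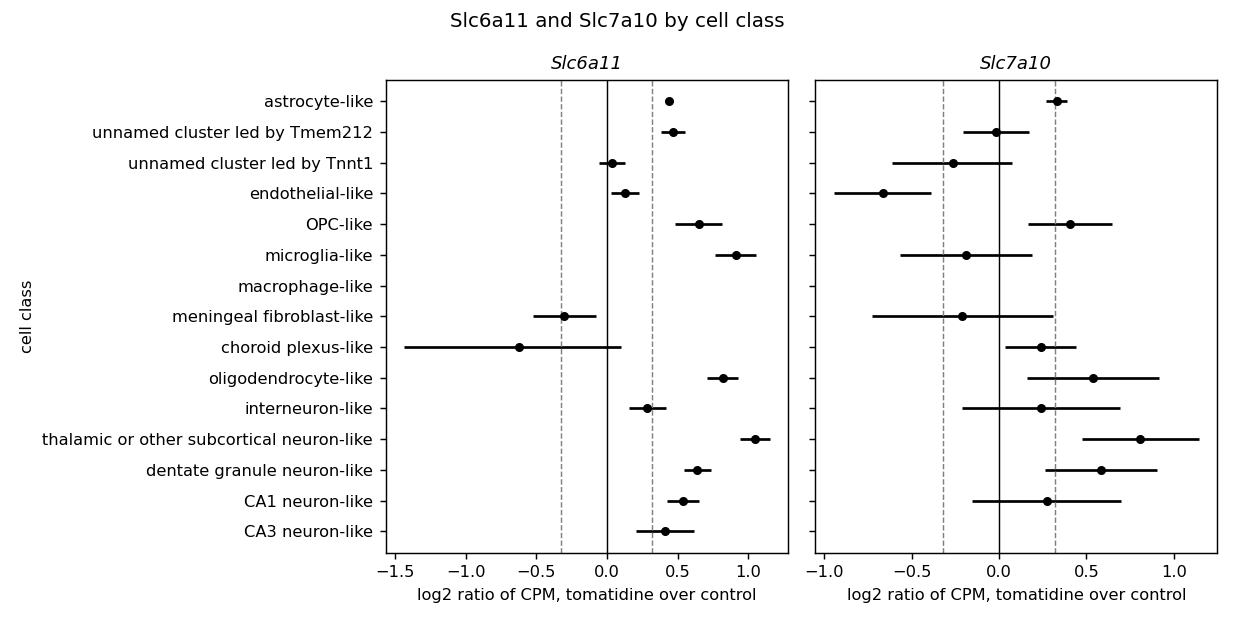
The log2 ratio of CPM, tomatidine over control, of Slc6a11 (left) and Slc7a10 (right) in each cell class with enough UMIs, with 95% counting intervals, and dashed lines at the fold (0.32); classes with no point had too few UMIs. Slc6a11 lies above 0 in most classes, from 0.03 (−0.06 to 0.13) in the unnamed cluster led by Tnnt1 to 1.05 in subcortical neuron-like cells. The latter class joins clusters whose mix differed between the libraries. Slc7a10 runs from −0.67 to 0.81.

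Slc7a10 was higher in 8 of 11 classes, with intervals above 0 in 6, again counting the astrocyte-like class. Its lowest log2 ratio was −0.67 (−0.95 to −0.39) in endothelial-like cells, at 71.1 and 44.7 CPM. In these cells, which also had 9 astrocyte markers raised, 9 of the 10 genes were lower in the tomatidine library, Slc1a2 at −0.43, Slc1a3 at −0.62 and Gja1 at −0.58, and Slc6a11 alone was higher. Glul (−0.17), Aqp4 (−0.31) and Agt (−0.24) were lower but inside the fold. Of all genes in the endothelial-like class 16.4% were past the fold in either direction and 7.96% were past it lower. The share of all genes that were lower by any amount is not given, so the 9 of 10 has no such share beside it. The connexins and Slc7a10 thus lay on the other side of 0 from their ratios in astrocyte-like cells, a difference that was not tested.

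Most of the RNA of some members came from outside the astrocyte-like cells. Of all UMIs of Glul, 20.7% in the control and 24.8% in the tomatidine library were in astrocyte-like cells, against 53.6% and 57.7% for Agt and 35.1% and 38.5% for Slc1a2. Oligodendrocyte-like cells held Glul at 1972 and 1946 CPM, near its level in the astrocyte-like cells, with UMIs in 96.8% and 96.2% of cells. Per 100 UMIs of Slc1a3 they had 1185 and 1190 of Glul, compared with 75.8 and 79.5 in astrocyte-like cells, so this Glul did not come with the other astrocyte transcripts.

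Slc1a2 was found in neurons of a single hippocampal field above the rest. CA3 neuron-like cells had 934 and 1071 CPM, CA1 neuron-like cells 322 and 380.0 CPM, and dentate granule neuron-like cells 501 and 547 CPM. Slc1a3, the other glutamate transporter of astrocytes, was at 44.6 and 78.2 CPM in CA3 and 52.4 and 69.3 CPM in CA1. Between the libraries, excitatory neuron-like cells as a whole had a log2 ratio of 0.21 for Slc1a2, inside the fold, which 11.9% of genes passed there. The ratio of Slc1a2 to Slc1a3 thus set CA3 apart, at 2094 and 1370 UMIs of Slc1a2 per 100 of Slc1a3, against 615 and 548 in CA1 neuron-like and 263 and 271 in astrocyte-like cells.

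Slc7a10 had a second site in the choroid plexus. Choroid plexus-like cells held it at 482 and 569 CPM, near the 373 and 469 CPM of astrocyte-like cells, with UMIs in 62.0% of 342 control and 48.4% of 31 tomatidine cells. Per 100 UMIs of Slc1a3 this was 378 and 800.0 of Slc7a10, compared with 11.50 and 16.03 in astrocyte-like cells. OPC-like cells had 98.3 and 129.99 CPM, with UMIs in 36.8% and 40.7% of cells, and 17.5 and 22.0 UMIs per 100 of Slc1a3. Of all Slc7a10 UMIs, 49.6% in the control library, which held more choroid plexus-like cells, and 67.5% in the tomatidine library were in astrocyte-like cells.

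Gjb6 and Gja1 came apart in the meninges. Meningeal fibroblast-like cells held Gjb6 at 1111 and 1424 CPM, above the 595 and 623 CPM of astrocyte-like cells, and Gja1 at 1053 and 1015 CPM, below the 2290 and 2409 CPM there. Per 100 UMIs of Slc1a3 they had 134 and 163 of Gjb6, compared with 18.3 and 21.3 in astrocyte-like cells. Aqp4 was highest in the unnamed cluster led by Tmem212, at 2153 and 3044 CPM, with 66.2 and 87.8 UMIs per 100 of Slc1a3 against 20.4 and 24.4 in astrocyte-like cells.

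**Figure D4:**
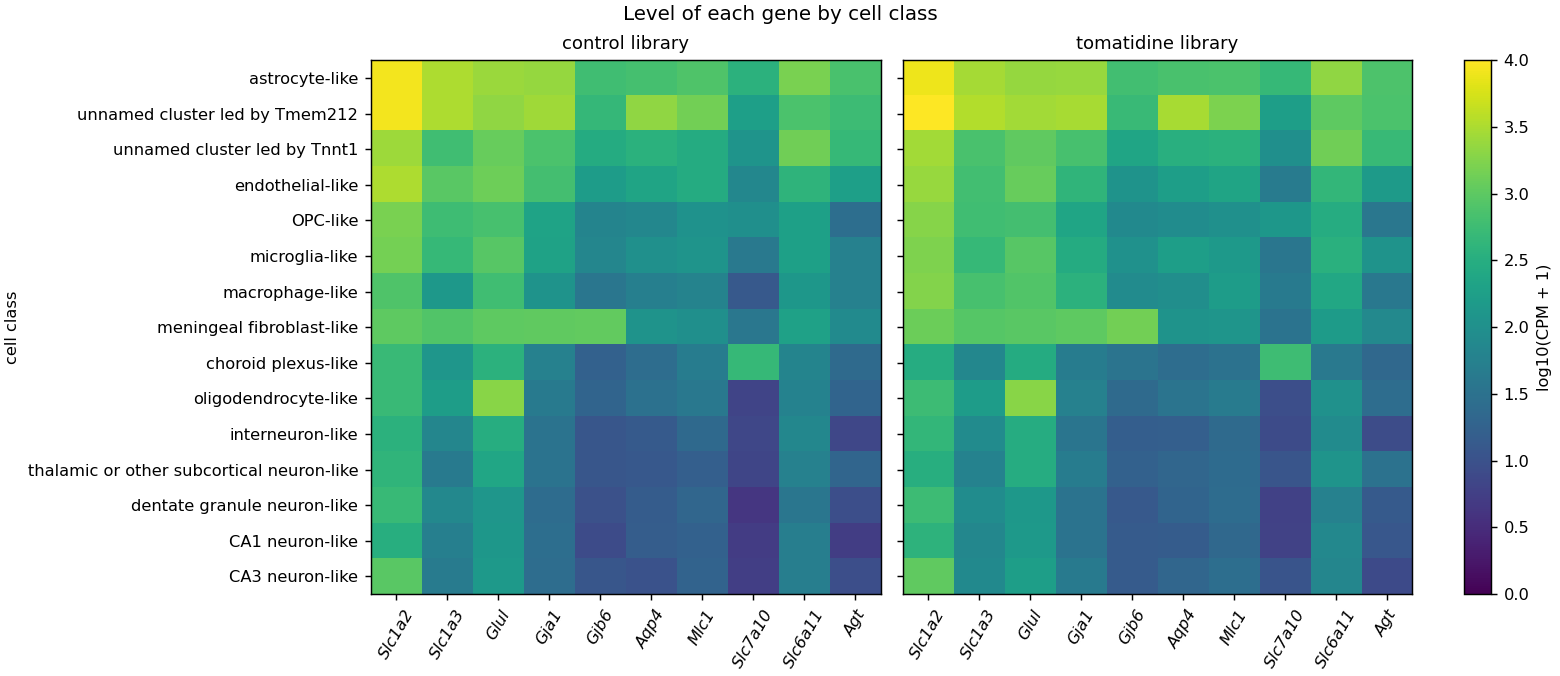
Level of each gene as log10(CPM + 1) in each cell class, control library left and tomatidine library right, with brighter colours for higher levels. Slc1a2 is bright well beyond the astrocyte-like row, at 8503 and 11662 CPM in the cluster led by Tmem212 and 3250 and 2407 CPM in endothelial-like cells, while Slc7a10 in choroid plexus-like cells (482 and 569 CPM) and Gjb6 in meningeal fibroblast-like cells (1111 and 1424 CPM) are brighter than the same genes in astrocyte-like cells.

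Over 34 profiles (17 classes in 2 libraries), the correlation of each gene with the mean of the members on the log2(CPM + 10) scale was highest for Mlc1 (r = 0.980) and Gja1 (0.976), and lowest for Slc7a10 (0.683) and Glul (0.836). Profiles of a library share depth and free RNA, so these values only describe likeness. The 5 other genes most like the mean were Fgfr3 (0.981), Slc25a18 (0.971), Plpp3 (0.970), Mt2 (0.970) and Lcat (0.968). Fgfr3 is a growth factor receptor and Slc25a18 a mitochondrial glutamate carrier.

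Astrocyte-like cells were then divided by whether a cell had more UMIs of Slc7a10 or of Agt and Slc6a11 together. On this count 72 control and 88 tomatidine cells fell on the Slc7a10 side, 1360 and 1691 on the Agt and Slc6a11 side, and 336 and 242 could not be divided. The Agt and Slc6a11 side was 94.97% of divided cells in control and 95.05% in tomatidine, a difference of 0.08 points (−1.42 to 1.64), and counting error alone covers either sign. It was higher by 1.75 points (0.07 to 3.52) in the cluster led by Acsbg1 and lower by 3.44 points (−6.44 to −0.26 on the difference) in the cluster led by Cyp4f15. The split compares UMIs as counted, and Slc6a11 alone had 15463 and 26010 UMIs in these cells against 3642 and 5670 of Slc7a10.

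Of the 7 genes that the split did not use, 0 were past the fold between the sides in the same direction in both libraries, where 13.1% of 9862 genes were. Gja1 was at 1975 CPM on the Slc7a10 side and 2476 CPM on the other in control, and at 3170 and 2481 CPM in tomatidine, so the sign turned between the libraries. On the Slc7a10 side the tomatidine library was higher than the control for Gja1 (log2 ratio 0.68), Gjb6 (0.71) and Aqp4 (0.54), where 36.6% of 1620 genes were past the fold, and on the other side the ratios were 0.00, −0.00 and 0.08, where 8.33% were. With 72 and 88 cells behind the first values, this was not tested.

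By the naming rule, the 10 genes toward the Agt and Slc6a11 side were Myoc, which encodes myocilin, Igsf1, Sfrp5, Cplx3, Bgn, Calb2, Pafah1b3, Fmo5, Zfhx3 and Pacc1. They had 1 to 7 UMIs per library on the Slc7a10 side and passed the minimum of 100 UMIs only through the other side, so neither their order nor the size of their ratios is read. The interval ran from 1.11 to 8.90 for Myoc in control, but it covered 0 in both libraries for Bgn (−0.56 to 7.27 and −0.26 to 7.56), Fmo5 and Pacc1, and in control for Cplx3 and Pafah1b3. In the other direction the 10 genes were Lama3, a laminin chain (−1.65 and −2.10), Eogt, Etv4, Tgfbr3l, Gsap, Gulp1, Shc1, Pkd1, Abcc10 and Fgfr1op. These too rest on few UMIs on the Slc7a10 side, such as 14 and 25 for Lama3, 9 and 16 for Tgfbr3l and 9 and 11 for Gulp1. For Fgfr1op the control interval covered 0 (−1.91 to 0.0036). Their order and the size of their ratios are not read either. Of 7 fibrous and reactive astrocyte genes tested, 5 were past the fold on the Agt and Slc6a11 side in both libraries, where 13.1% of all genes were past it in either direction, a count that fell to 3 under the scaled split described next. Of these 5, Gfap had 343 and 374 UMIs on the Slc7a10 side. Myoc, Serpina3n, Fabp7 and Vim had 1 to 34 per library there and passed the minimum through the other side, so the count is not read. For Fabp7 the control interval covered 0 (−0.20 to 0.98).

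A split with each side divided by its own sum over the cells, added after the data were seen, gave sides of more even size. It put 534 control and 691 tomatidine cells on the Slc7a10 side and 946 and 1149 on the Agt and Slc6a11 side, with 63.9% and 62.4% of the divided cells on the latter, a difference of −1.47 points. The Slc7a10 side was the deeper one, with medians of 5029 and 4988 UMIs against 3175.5 and 3770. Here 5 of the 7 genes outside the split were past the fold on the Slc7a10 side in both libraries, where 18.6% of 9932 genes were past it in either direction and 11.5% in that one.

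Slc1a3 stood furthest apart, at 4444 CPM on the Slc7a10 side and 2468 CPM on the other in control and at 4102 and 2110 CPM in tomatidine (log2 ratios of the Agt and Slc6a11 side over the Slc7a10 side −0.85 and −0.96). Gja1 followed at −0.57 and −0.65, Gjb6 at −0.56 and −0.75, Slc1a2 at −0.49 and −0.54, and Mlc1 at −0.45 and −0.49. Glul (−0.07 and −0.07) and Aqp4 (0.13 and 0.07) were alike on both sides. Both glutamate transporters, both connexins and Mlc1 were thus higher on the Slc7a10 side over all astrocyte-like cells, and the sign was the same in both libraries for each of the 7 genes.

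The scaled sides held the 2 clusters in different shares, with 272 of the 413 control and 395 of the 595 tomatidine cells of the cluster led by Cyp4f15 on the Slc7a10 side. Within that cluster, 2 of the 7 genes were past the fold, Slc1a3 (−0.42 and −0.49) and, on the Agt and Slc6a11 side, Aqp4 (0.85 and 0.72), where 7.26% of genes were past it, and Gja1 was at 0.20 and 0.12. Within the cluster led by Acsbg1 only Aqp4 was past it (0.39 and 0.51), where 6.04% of genes were, and Slc1a3 was at −0.22 and −0.48. The scaled split was also made with its own genes thinned to 1500 UMIs a cell, leaving out cells below that depth. The levels compared between these sides were not thinned. The count was again 5, where 23% of genes were past the fold, and Aqp4 was at −0.06 and −0.16. Aqp4, even over the sides as a whole, was therefore higher on the Agt and Slc6a11 side within each cluster, and the connexins were not past the fold within either.

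**Figure D5:**
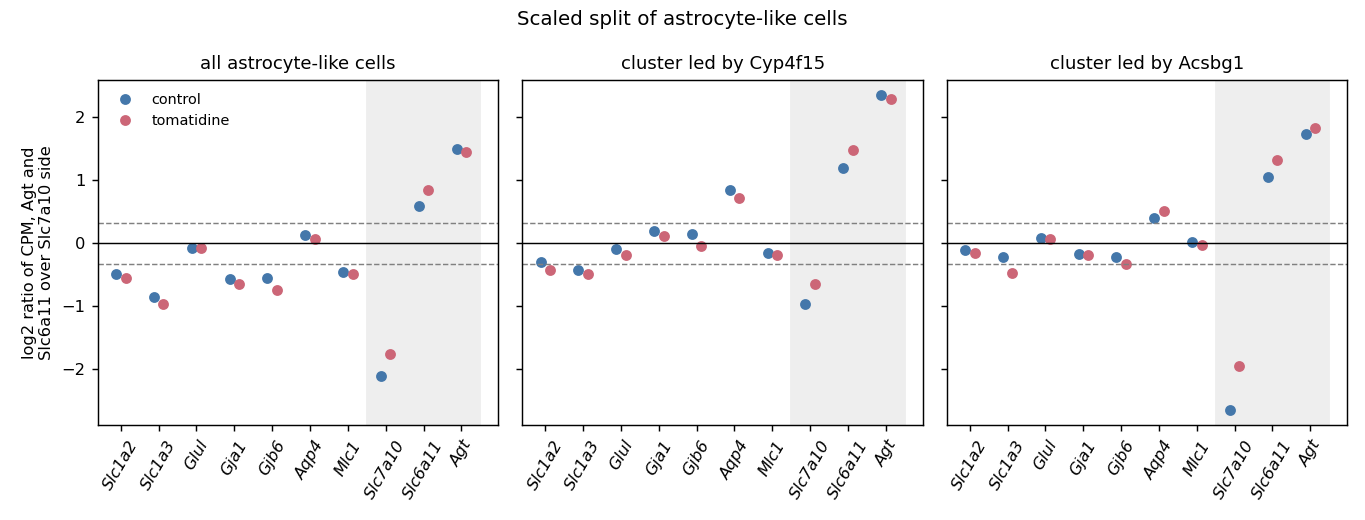
The log2 ratio of CPM of the Agt and Slc6a11 side over the Slc7a10 side for each gene under the scaled split, in all astrocyte-like cells and within each cluster, control in blue and tomatidine in red. Grey marks the 3 genes that made the split and dashed lines the fold (0.32); Slc1a3 is below 0 and Aqp4 above 0 in every panel and both libraries.

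Regional genes also differed between the scaled sides. On the Slc7a10 side, 7 of 9 telencephalic genes were past the fold in both libraries, among them the milk fat globule protein gene Mfge8 (−1.20 and −1.35) and the transcription factor gene Lhx2 (−0.48 and −0.62). Of all genes, 11.5% were past it on that side and 18.6% in either direction. On the Agt and Slc6a11 side, 4 of 6 genes of other regions were, namely Irx1 (1.503 and 1.998), Otx2 (1.41 and 1.01), Zic1 (1.06 and 1.30) and Sparc (0.84 and 1.35), and Zic5 was past it on the other side (−0.50 and −1.47). Irx1 had 25 UMIs in each library on the Slc7a10 side and passed the minimum mainly through the other side. The sides therefore also differed in regional genes, and region and the split cannot be told apart here.

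Most partners of the members were past the fold on neither side. Past it on the Slc7a10 side were 2 of 11 genes of the glutamate and glutamine list, 3 of 11 of the serine and glycine list, 3 of 10 of the potassium list and 4 of 6 junction and endfoot partners, and 0 of the GABA and angiotensin lists, against 11.5% of all genes. Past it on the other side were 2 of the 11 serine and glycine genes, 1 of 4 GABA genes and 1 of 4 angiotensin genes, and 0 of the other lists, where 18.6% of all genes were past it in either direction. The glutamine exporter Slc38a3 (−1.01 and −1.04), the glutamate receptor Grm3 (−0.61 and −0.74) and the glycine cleavage enzyme Gldc (−0.90 and −1.23) were higher on the Slc7a10 side, as were Hepacam (−0.53 and −0.58) and Dtna (−0.41 and −0.76). The glycine transporter Slc6a9 (0.57 and 0.87) and the GABA transaminase gene Abat (0.48 and 0.61) were higher on the Agt and Slc6a11 side. Of the 7 fibrous and reactive genes, 3 were past the fold on that side, Myoc, Fabp7 (0.75 and 0.78) and Serpina3n (0.72 and 1.29), and the complement gene C4b was past it on the Slc7a10 side (−0.85 and −0.62), while Vim was at −0.12 and −0.13. The genes with the largest difference by the rule were as follows. Toward the Agt and Slc6a11 side they were Myoc (3.99 and 4.28), Igsf1, Pcolce2, Fzd10, Unc13c, Irx1, Baiap3, Ucp2, Calb2 and A2m. Toward Slc7a10 they were Lama3 (−1.74 and −2.71), Col11a2, the thyroxine transporter Slco1c1 (−1.56 and −2.09), Tnfsf13, Hgf, Prelp, Ccn1, Ttll8, Gsap and Crlf3. On its lower side in control and tomatidine, Myoc had 19 and 25 UMIs, Pcolce2 32 and 29, and Lama3 35 and 27. Slco1c1 had 428 and 415. Genes with few UMIs on the lower side passed the minimum mainly through the other side. Their direction is read, but not their order or the size of their ratios.

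By side of the scaled split, Slc6a11 was at 1365 CPM in control and 1569 CPM in tomatidine on the Slc7a10 side (log2 ratio 0.20) and at 2049 and 2822 CPM on the other (0.46), and Slc7a10 had ratios of 0.25 and 0.61. These genes made the split, so the values are a description. Among the 7 others, Gja1 was at 0.09 and −0.00 and Slc1a3 at −0.12 and −0.23 on the Slc7a10 side and the other side, and none was past the fold on either, where 11.6% and 9.92% of genes were.

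Other genes of the same pathways were mostly within the fold between the libraries. Over 6 lists of 61 genes, 60 were found, 50 had enough UMIs, and 2 were past the fold higher and 3 lower in the tomatidine library, against the 8.3% of all genes given above. Slc1a5, a neutral amino acid transporter, was at 3.38 and 6.37 CPM (33 and 77 UMIs, log2 ratio 0.91), and the syntrophin gene Sntb1 at 7.38 and 10.1 CPM (0.45). Slc1a5 passed the minimum mainly through the tomatidine library. Lower were the chloride transporter Slc12a2 (69.6 and 53.6 CPM, −0.38), connexin 26 or Gjb2 (48.8 and 37.0 CPM, −0.40) and the angiotensin-converting enzyme Ace (20.2 and 12.7 CPM, −0.67).

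The glutamate and glutamine list had no gene past the fold, with Gls2, a glutaminase, highest at 0.26. The GABA list had none either, with Aldh5a1, an enzyme of GABA breakdown, lowest at −0.05. Of the 10 genes on the fibrous and reactive list, 8 had enough UMIs, and Myoc was past the fold higher (39.6 and 56.8 CPM, 0.52) and Vim lower (191 and 116 CPM, −0.71).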

How the data were processed

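Single-cell RNA-seq was done with a probe-based kit on fixed cells of pooled hippocampus (4 mice a library, 1 library a group). The authors mapped reads to mm10 and deposited counts, the number of UMIs of each gene in each cell without normalization. The labels name Cell Ranger 8.0.0 and the matrix headers 7.1.0. Depth was 279525565 and 259059908 UMIs, with medians of 7066 and 7408 per kept cell, and no column was without a sample.

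Everything else was computed here. A cell was kept if it had at least 500 UMIs, over 250 genes, a log10 gene-to-UMI ratio above 0.8 and a mitochondrial share under 20%. Scrublet (scanpy 1.11.5) called 0 and 1 cells at its own threshold and had not worked, so the 2% of cells with the highest scores were removed, 308 and 295. Seurat 5.3.0 (R 4.3.3) was used for RPCA integration and Louvain clustering at resolution 0.8, without 105 genes that hold the members. Clusters were named from marker lists, and the naming rule was settled after clusters were seen. Names were rebuilt and may differ from the study's. The members, gene lists and comparisons were chosen with earlier results of these data known.

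UMIs were summed per class and library. Log2 ratios of CPM have exact conditional binomial intervals, levels exact Poisson intervals and differences of shares Newcombe intervals, at 95%. Named were the members, list genes past 0.32 on the log2 scale or else the highest and lowest, the 10 genes a direction that differed most between the sides, and the 5 most like the members' mean, all with at least 100 UMIs where a ratio is given; some of these genes are not reported here. Genes shown by side of the scaled split, and the finer clusters, were chosen after their values were seen. Alternatives covered the cell filter, doublets, integration, resolution, gating of cells on 5 or more astrocyte markers, neuronal RNA, scaling (TMM in edgeR 4.0.16, used for the factors alone), weighting, minimum, fold and split. The calculations were tested on simulated data. Sums and intervals used Python 3.11.15 with pandas 2.3.3, scipy 1.17.1 and numpy 2.4.6, and figures matplotlib 3.10.9. Gene symbols come from the files, and promoter sequences from RefSeq on GRCm38.p6.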

Additional observations from a re-analysis of the deposited data

Results flagged for a closer look

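The genes Slc1a2, Slc1a3, Glul and Mlc1 lay on opposite sides of 0 in astrocyte-like and excitatory neuron-like cells, each with a counting interval that left out 0, and this difference between the classes was not tested. The log2 ratio of tomatidine over control was −0.10 in astrocyte-like and 0.21 in excitatory neuron-like cells for Slc1a2. It was −0.15 and 0.39 for Slc1a3, −0.0805 and 0.19 for Glul, and −0.13 and 0.45 for Mlc1. All the values in astrocyte-like cells are within 0.32 of 0, the neuronal values of Slc1a3 and Mlc1 are past it, and 11.9% of genes were past it in excitatory neuron-like cells.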

How the results depend on the processing

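With 1 library a group there was no replicate to leave out. No paired analysis was possible because the groups hold 1 pooled library each. Over 13 alternatives the log2 ratio of tomatidine over control ran from 0.21 to 0.59 for Slc6a11 (12 of 13 on the same side of the fold, 0.32), from 0.13 to 0.61 for Slc7a10 (8 of 13) and from −0.31 to −0.01 for Slc1a3. Among the 13, the setting with no minimum could not change the ratio of a member. For 6 of the genes (Slc1a2, Glul, Gja1, Gjb6, Aqp4 and Agt) the lowest and the highest value differed in sign, each within the fold. The number of members past the fold, 2 in the report, was 1 without integration, at resolution 1.5, with TMM factors or with the same mix of sides, and 0 with the marker gate or at 1.5-fold. Their median, 0.07 in the report, was 0.0053 without integration, −0.024 at resolution 1.5, −0.13 with the marker gate, 0.12 without the 25% of cells with most neuronal RNA, 0.15 with the cluster led by Tnnt1 (chosen after seeing the data) and 0.18 as a mean over cells. The difference in the share of the Agt and Slc6a11 side, 0.08 points in the report, was 1.90 with cells that had none of the other side's UMIs, −1.80 with Slc7a10 against Agt alone and −1.47 with the scaled split. The number of members that differed between the sides, 0 in the report, was 1 at resolution 0.3, at resolution 1.5, with cells that had none of the other side's UMIs or after thinning the genes of the split, 2 with the marker gate and 3 with Slc7a10 against Agt alone. The scaled split and its forms, also chosen after seeing the data, gave 5 in all cells and after thinning the genes of the split, 2 in the cluster led by Cyp4f15 and 1 in that led by Acsbg1. The number of pathway genes past the fold, 5 in the report, was 3 with the marker gate or the cluster led by Tnnt1, 8 without the cells with most neuronal RNA, 9 as a mean over cells, 14 with no minimum and 2 at 1.5-fold. Apart from the forms of the scaled split, the share of all genes past the fold is not given for these alternatives. The counts are therefore not read as changes in the members or the pathway genes. The cause of these shifts was not tested, other than that a larger fold or a lower minimum calls fewer or more genes by construction.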
